A study of Mus musculus with 2 samples.

Results

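The proteasome subunit genes of the mouse were described in total RNA from the left cerebral cortex. Members were the protein-coding genes whose symbol begins with Psma, Psmb, Psmc, Psmd or Psme and a digit, which gave 45 of the 22028 protein-coding genes and of 55536 annotated genes. The rule used names only and no measured value. It also took in Psmc3ip, which carries the name of a subunit partner and is a recombination factor rather than a subunit, and it left out 4 pseudogenes, of which Psmb7-ps2 had 1 and 5.27 expected counts and the other 3 had none.

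The tissue came from 2 male mice of the F1 hybrid strain B6CASTF1/J (B6 by Cast), aged 8 to 10 months, and the labels name no treatment. Libraries were stranded, took 300 ng of RNA each, were depleted of ribosomal RNA and carried ERCC spike-ins. The labels place both animals (numbers 2 and 4) in 1 group as replicates 1 and 2. The donor label of the libraries is identical, and only the animal numbers tell the mice apart. With n = 2 and no second group there was no condition to compare and no test, and ± marks the SD over the 2 libraries.

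The 26S proteasome degrades proteins tagged with ubiquitin. Its 20S core is a barrel of alpha rings (Psma genes), which gate the entry, around beta rings (Psmb genes), of which Psmb5, Psmb6 and Psmb7 carry the active sites. The 19S cap binds the chain of ubiquitin, unfolds the substrate with a ring of ATPases (Psmc genes) and removes ubiquitin in its lid (Psmd genes). Interferon induces Psmb8, Psmb9 and Psmb10, which take the places of the constitutive catalytic subunits in the immunoproteasome of immune cells. Activators of the Psme family can cap the core in place of the 19S. In neurons the proteasome turns over synaptic proteins.

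The constitutive and the induced catalytic subunits are separate genes with similar reading frames, and the bases that differ let a read be assigned to 1 of them. The stretch shown is the first 60 bases of the mature chain, from the codon of the threonine that carries out the cleavage, in a GENCODE M21 transcript with a complete reading frame on mm10 (for Psmb8 the form Psmb8-201, listed at 0 in the first quantification). Capitals mark the bases that differ between the members of a pair.
Psmb5: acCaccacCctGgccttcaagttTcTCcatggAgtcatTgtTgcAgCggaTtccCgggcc
Psmb8: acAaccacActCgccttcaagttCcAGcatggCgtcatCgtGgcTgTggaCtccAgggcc
Psmb6: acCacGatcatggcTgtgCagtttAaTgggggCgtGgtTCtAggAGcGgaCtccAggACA
Psmb9: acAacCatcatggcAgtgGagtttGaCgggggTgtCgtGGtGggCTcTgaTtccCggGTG
Psmb7: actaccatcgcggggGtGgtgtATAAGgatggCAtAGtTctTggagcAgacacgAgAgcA
Psmb10: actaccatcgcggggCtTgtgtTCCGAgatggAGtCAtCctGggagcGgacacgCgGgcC
The pairs differed at 13, 19 and 17 of these bases. Over the whole coding sequence the identity was 67.4% for Psmb5 and Psmb8, 66.2% for Psmb6 and Psmb9 and 63.3% for Psmb7 and Psmb10. The longest run of bases shared within a pair was 18, 11 and 15, and none of the 6 transcripts shared a stretch of 50 bases with its partner.

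Libraries held 26925514 and 30143684 expected counts, of which the members took 49995 and 56902. Marker lists matched the labelled tissue, with the 6 neuron markers at a median of 334.8 and 349.2 TPM (a transcript level normalised for length and depth) in replicates 1 and 2. The 6 astrocyte markers stood at 117.7 and 124.4 TPM and the 7 microglia markers at 18.1 and 18.0 TPM. Among the 10 lists the libraries differed most in 3. Choroid plexus markers summed to 31.7 and 2.65 TPM, immediate early genes to 436.0 and 152.0 TPM and red cell genes to 576.9 and 413.7 TPM. These differences stand beside every comparison of the animals below, and their part in it was not tested.

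In cortex RNA, the 31 genes of the standard 26S proteasome that the symbol rule names stood at a high and even level. Of 2 further 19S genes outside the rule, Adrm1 (42.8 and 49.7 TPM) lay in their range. The other, Sem1 (15.7 and 15.2 TPM), lay below all 31. The 14 constitutive 20S genes had a median of 64.7 and 66.6 TPM in the 2 libraries. The 17 Psmc and Psmd genes of the 19S had a median of 52.6 and 54.9 TPM. The 12994 protein-coding genes at 1 TPM or more in both libraries had medians of 16.0 and 16.4 TPM. All 31 subunits lay within 2-fold of their own median of 58.1 TPM, and 21 lay within 1.5-fold. On transcripts annotated as coding alone, a setting chosen after seeing the data, 29 lay within 2-fold of a median of 52.6 TPM, with Psmc6 (23.6 TPM) and Psmd13 (21.4 TPM) below it. Their log2 levels had an SD of 0.50 and 0.48, against 1.83 in both libraries for all expressed coding genes. The 45 members together took 0.436% ± 0.00635 of the TPM of protein-coding genes (n = 2). In bulk tissue a lower share of a cell type and less RNA per cell cannot be told apart, and these levels are averages over all cells of the cortex.

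**Figure D1:**
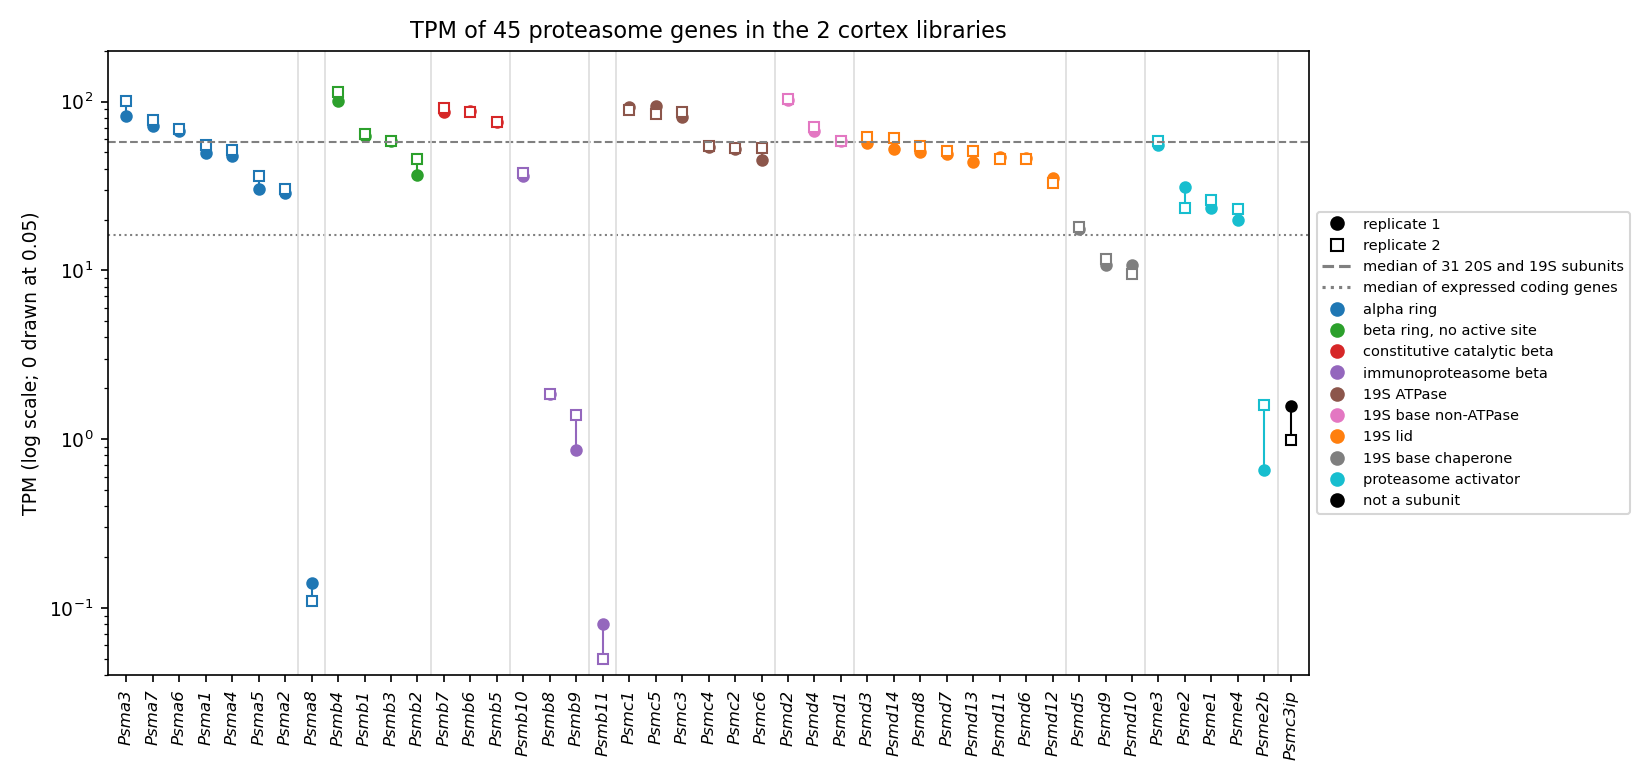
TPM on a log axis of all 45 members in replicate 1 (filled circles) and replicate 2 (open squares), grouped by role and joined by a line per gene, with the median of the 31 subunits (dashed) and of expressed coding genes (dotted). The 31 subunits of the 20S and 19S lie between 28.8 and 113.9 TPM, while Psmb8, Psmb9, Psmb11, Psma8, Psme2b and Psmc3ip lie at or below 1.86 TPM.

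Within the alpha ring, Psma3 was highest at 82.2 and 101.3 TPM in replicates 1 and 2. On coding transcripts alone it stood at 44.8 and 60.3 TPM, below Psma7 (63.9 and 67.2 TPM) and Psma6 (64.9 and 65.4 TPM). Psma7 followed at 71.3 and 77.7 TPM and Psma6 at 66.8 and 69.0 TPM. Psma1 stood at 49.7 and 55.4 TPM. Psma4 was close to it at 47.5 and 51.9 TPM, and the ranges of the pair overlapped. Psma5 at 30.4 and 36.5 TPM and Psma2 at 28.8 and 30.3 TPM were the lowest of the ring, and both libraries put them there. Psma8, which replaces Psma7 in the testis, had 2 and 4 counts (0.14 and 0.11 TPM), at or near the limit of 3 counts that a count of 0 allows.

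In the beta ring the subunits without an active site spanned a wider range than those with one. Psmb4, the last beta subunit to join during assembly, was the highest member by mean at 101.4 and 113.9 TPM. Retained-intron forms held 30.5% and 39.2% of this, and on coding transcripts alone Psmb4 stood at 70.5 and 69.3 TPM, while Psmd2 was highest at 97.8 and 98.7 TPM. Psmb1 stood at 62.6 and 64.2 TPM and Psmb3 at 58.4 and 58.1 TPM. Psmb2 was the lowest constitutive beta subunit at 36.8 and 46.0 TPM. The catalytic subunits lay close together: Psmb7 (trypsin-like activity) at 86.7 and 91.6 TPM, Psmb6 (caspase-like) at 88.1 and 86.8 TPM and Psmb5 (chymotrypsin-like) at 76.1 and 76.2 TPM. The geometric mean of the 7 alpha genes was 0.741 ± 0.0268 of that of the 7 constitutive beta genes, lower in both libraries although the particle holds equal numbers of each.

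The 6 ATPases of the 19S fell into an upper and a lower set of 3. Psmc1 stood at 93.2 and 89.2 TPM, Psmc5 at 94.5 and 85.0 TPM and Psmc3 at 80.9 and 86.6 TPM. Psmc4 followed at 54.1 and 54.9 TPM, Psmc2 at 52.6 and 53.2 TPM and Psmc6 at 45.3 and 53.1 TPM. The 2 sets did not overlap in either library. Among the 11 other 19S genes the highest by mean were Psmd2, a scaffold of the base, at 102.7 and 104.1 TPM, Psmd4, a receptor for ubiquitin, at 67.3 and 70.2 TPM, and the lid gene Psmd3 at 56.7 and 61.2 TPM. In replicate 1 Psmd1 (58.0 TPM) was above Psmd3. The lowest by mean were the lid genes Psmd12 at 35.1 and 32.9 TPM, Psmd6 at 46.5 and 46.0 TPM and Psmd11 at 47.1 and 45.5 TPM. In replicate 1 Psmd13 (43.6 TPM) was below Psmd6 and Psmd11. On coding transcripts alone Psmd13 was the lowest of the 31 subunits at a mean of 21.4 TPM. Psmd1, Psmd7, Psmd8, Psmd13 and Psmd14, the last of them the enzyme that cuts ubiquitin off the substrate, lay between these at means of 47.4 to 58.1 TPM. As geometric means, 20S genes stood at 1.05 ± 0.0367 of 19S genes, and ATPases at 1.25 ± 0.0221 of the other 19S genes.

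The order of the members was nearly the same in both animals. Spearman's rho between the libraries was 0.987 over 45 genes and 0.968 over the 31 subunits, as a description across genes that share their libraries and lengths. Fine differences in the order did not hold up: 24 of the 30 neighbouring pairs among the 31 subunits differed by less than the larger of their SDs.

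Genes whose symbol marks them as subunits but which act as chaperones of the 19S base were lower. Psmd5 stood at 17.5 and 18.2 TPM, Psmd9 at 10.8 and 11.7 TPM and Psmd10, also known as gankyrin, at 10.7 and 9.46 TPM. All 3 lay below each of the 31 subunits in both libraries. Of the activators, Psme3, which forms the nuclear cap of the PA28 gamma type, was highest at 55.6 and 58.7 TPM. Psme4, the large single-chain activator PA200, stood at 19.9 and 23.0 TPM. Psme1 and Psme2, whose products form a joint ring induced by interferon and which lie on chromosome 14 with Emc9 between them, stood at 23.4 and 25.9 TPM and at 31.2 and 23.5 TPM, and their order differed between the libraries. Psmc3ip, the recombination factor, had 1.57 and 0.99 TPM from 27 and 19 counts.

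The induced catalytic subunits did not behave as 1 group. Psmb8 stood at 1.86 and 1.84 TPM from 29 counts (exact 95% Poisson interval 19.4 to 41.6) and 33 counts (22.7 to 46.3). Psmb9 stood at 0.86 and 1.38 TPM from 19 counts (11.4 to 29.7) and 24 counts (15.4 to 35.7). Psmb10 stood at 36.1 and 37.9 TPM from 400 and 512 counts, where its range overlapped those of Psmb2 and Psma5. The intervals cover counting error only. Psmb11, the subunit of the thymus, had 6 counts and 0 counts, the latter of which allows up to 0.109 CPM (counts scaled to library size).

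Set against the subunit that each replaces, Psmb8 was 2.43% ± 0.0197 of Psmb5, Psmb9 was 1.28% ± 0.434 of Psmb6 and Psmb10 was 41.5% ± 0.132 of Psmb7 (n = 2 each). The geometric mean of the 3 induced genes was 5.05% ± 0.556 of that of the 3 constitutive genes. Psmb8 and Psmb9 lie on either side of Tap1 in the MHC region of chromosome 17 (mm10, chr17:34197721-34201454 and chr17:34181987-34187764), whereas Psmb10 lies on chromosome 8 (chr8:105935735-105938444).

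**Figure D2:**
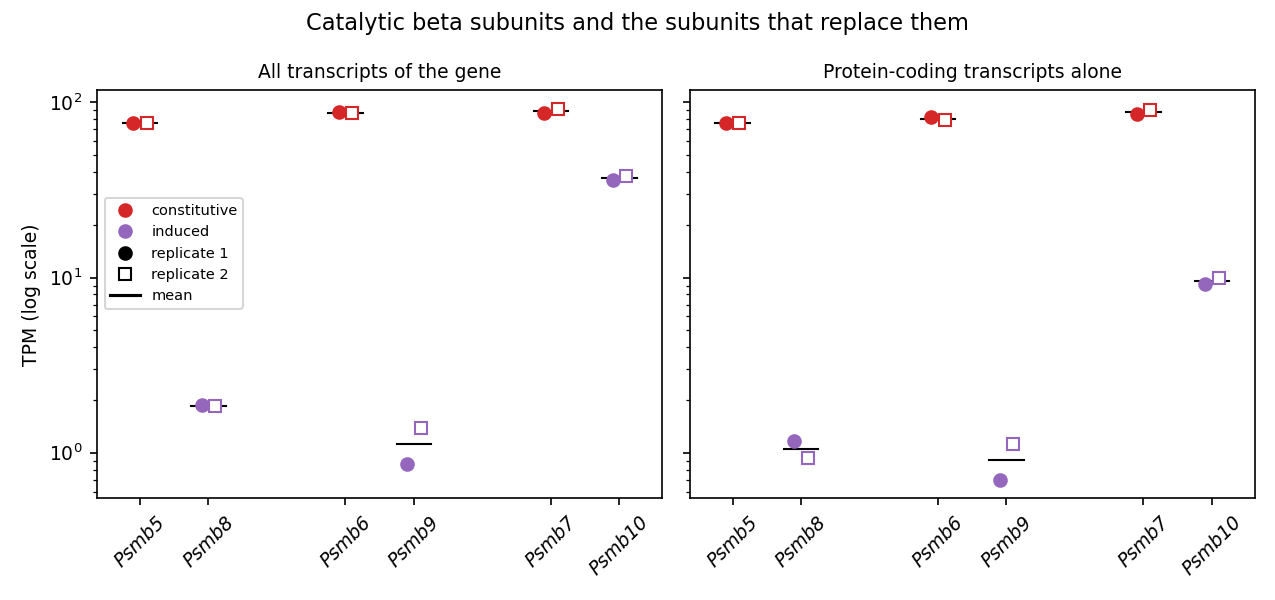
TPM on a log axis of the constitutive catalytic genes (red) and the induced genes that replace them (purple), with filled circles for replicate 1, open squares for replicate 2 and a bar at the mean. The left panel takes all transcripts of a gene and the right panel the protein-coding transcripts alone, where Psmb10 falls to a mean of 9.53 TPM while Psmb7 stays at 88.6 TPM.

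The level of Psmb10 came mostly from transcripts that are not annotated as coding. Its coding form Psmb10-201 took 25.3% and 26.2% of the gene's TPM in replicates 1 and 2. The leading form was Psmb10-205, a retained-intron transcript of 554 bases, at 37.0% and 49.9%. A processed transcript of 426 bases, Psmb10-203, took 29.0% and 8.54%. Because these forms are short, they weigh more in TPM than in counts, and the coding form held 48.6% and 44.96% of the gene's expected counts. On coding transcripts alone, an alternative chosen after seeing the data, Psmb10 stood at 9.13 and 9.93 TPM and was 10.8% ± 0.244 of Psmb7. Psmb8 was then 1.37% ± 0.214 of Psmb5, Psmb9 was 1.14% ± 0.403 of Psmb6, and the geometric mean ratio fell to 2.55% ± 0.192. The whole of Psmb10 is overlapped on the opposite strand by the antisense gene Gm16156, listed at 1 and 2 counts, and whether counting used the strand is not given in the sources used here.

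Genes that accompany the immunoproteasome in antigen presentation were low to moderate. Of the 10 genes listed, B2m, the light chain of MHC class I, was highest at 48.2 and 50.7 TPM, and Nlrc5, an activator of MHC class I transcription, was lowest at 0.25 and 0.37 TPM. Tap1, the peptide transporter whose start site lies 211 bases from that of Psmb9 on the other strand, stood at 1.03 and 1.38 TPM beside 0.86 and 1.38 TPM for Psmb9. The microglia list, a cell type known to express immune genes, summed to 140.2 and 140.6 TPM over 7 of 7 detected markers. The leukocyte list of 5 markers summed to 1.7 and 1.86 TPM, with Ptprc at 1.53 and 1.38 TPM, Cd3e at 0 and 0.3 TPM and Nkg7 at 0 in both. Which cells gave the reads of Psmb8, Psmb9 and Psmb10 was not tested.

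Across the pathway, abundance differed strongly by role. Of 20S assembly factors, Pomp, the maturation protein that is consumed with each new core, was highest at 72.5 and 64.9 TPM. The dimer-forming chaperones Psmg1 to Psmg4 had means of 8.01 to 10.5 TPM, and Pomp stood at 7.63 ± 1.01 times their geometric mean. Of the further 19S subunits, Adrm1, a ubiquitin receptor, had 42.8 and 49.7 TPM and the small lid protein gene Sem1 had 15.7 and 15.2 TPM. Of the enzymes bound to the proteasome, the ubiquitin protease gene Usp14 was highest at 74.6 and 77.5 TPM and Uchl5 lowest at 16.3 and 18.8 TPM. Shuttle factors that carry ubiquitylated proteins to the cap ranged from Ddi2 at 19.8 and 20.3 TPM to Ubqln2 at 96.9 and 99.8 TPM. Ubiquitin itself was far more abundant, from Rps27a at 241.7 and 244.7 TPM to the polyubiquitin gene Ubb at 876.8 and 906.2 TPM. Of the activating enzymes, Uba1 stood at 167.2 and 176.8 TPM and Uba6 at 11.7 and 10.2 TPM. The inhibitor gene Psmf1 stood at 16.6 and 21.7 TPM, and Ecpas, a scaffold that binds the 26S particle, was the highest of its list at 60.4 and 66.4 TPM. The factor Nfe2l1, which raises subunit transcription when proteasome activity is short, stood at 150.03 and 143.45 TPM, the related Nfe2l2 at 8.07 and 6.48 TPM.

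Nfe2l1 and Nfe2l2 bind antioxidant response elements, and the promoters with letters of the core of that element are shown for this reason. RefSeq promoter windows on GRCm38.p6, the build of mm10, were matched for 38 of 45 members (41 windows), and the 250 bases before the RefSeq start were searched on both strands. The core TGACNNNGC was found in 5 of 41 windows (12.2%), against 10.2% of all 32851 windows. Capitals mark the match, lower case up to 25 bases on each side within the window and outside annotated exons, read in the direction of the gene.
Psmb5 (chr14:54618023-54618067, minus strand): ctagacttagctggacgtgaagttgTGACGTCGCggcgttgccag
Psmb6 (chr11:70525323-70525356, plus strand): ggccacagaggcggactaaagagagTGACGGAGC
Psmc6 (chr14:45329574-45329630, plus strand): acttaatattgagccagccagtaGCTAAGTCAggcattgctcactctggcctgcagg
Psmd9 (chr5:123228134-123228189, plus strand): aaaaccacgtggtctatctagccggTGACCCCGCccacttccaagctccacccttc
Psmd12 (chr11:107479278-107479314, plus strand): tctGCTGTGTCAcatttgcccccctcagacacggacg
In Psmb5 and Psmb6 the match began 47 and 9 bases before the RefSeq start, in Psmd9 31, and in Psmc6 and Psmd12 227 and 247. Counted from the GENCODE M21 start of the gene, the distances were 20, 19, -58746, 191 and 203 bases in the same order. The minus sign marks a match past that start, so the Psmd9 window lies inside the GENCODE gene. The core of ETS factor sites, CCGGAA, was found in 17 of 41 windows (41.5%) against 12.03% of all, and the GC box GGGCGG in 22 (53.7%) against 32.7%. CCAAT stood in 15 (36.6%) against 33.9%. The interferon-stimulated core GAAANNGAA stood in 3 windows (7.32%, against 7.13%), those of Psmb3, Psmd4 and Psmd9. The gamma-activated letters TTCNNNGAA stood in 1 window, that of Psmb8 (2.44%, against 7.02%). Each motif was counted on its own, so a base could fall in more than 1 match, and a match is a description of letters rather than a bound site. A gene could have more than 1 window, and the 32851 windows were not limited to expressed genes. Whether the ETS and GC box shares differ from those of other expressed genes was not tested.

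Some members shared their start region with another gene. A protein-coding gene on the opposite strand began within 1000 bases head to head with 11 of 45 members (24.4%), compared with 10.8% of all 22028 protein-coding genes. Only 12994 of these reached 1 TPM in both libraries. No share was taken over expressed genes alone, so whether the members differ from them is not known. Psmc2 and Dnajc2 started 32 bases apart and stood at 52.6 and 53.2 TPM and at 15.2 and 15.6 TPM. Psmb1 and Tbp, the TATA-binding protein gene, started 137 bases apart, with 62.6 and 64.2 TPM for Psmb1 and 14.1 and 13.8 TPM for Tbp. In 10 of the 11 pairs the proteasome gene was the higher in both libraries, the exception being Psmb9 and Tap1. The same count was not made for other head-to-head pairs, so it describes no trait of shared start regions. The 31 subunits had medians of 56.7 and 58.1 TPM, against 16.0 and 16.4 TPM for expressed coding genes. Of the partners, AY074887 stood at 0.17 and 0.08 TPM and Cutal at 0.59 and 0.1 TPM. Members lay on 16 chromosomes, with 10 on chromosome 11.

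Few members differed between the animals, about as few as among other genes of like depth. A log2 ratio of replicate 1 over replicate 2 was taken on normalised counts for the 14167 genes that averaged 50 or more normalised counts over the libraries. Of the members, 39 passed, all 31 subunits among them, and Psma8, Psmb8, Psmb9, Psmb11, Psme2b and Psmc3ip did not. Of the 39, 2 were past 1.2-fold, 1 in each direction, and 0 were past 2-fold. With spike-in scaling 3 were past 1.2-fold (Psmc5, Psmd10 and Psme2), all higher in replicate 1. Of all genes counted, 18.4% were past 1.2-fold, 9.15% with replicate 1 higher and 9.25% with replicate 2 higher, and 0.854% were past 2-fold. The even split depends on the scaling: 1971 genes were past 1.2-fold with replicate 1 higher and 933 with replicate 2 higher under spike-in scaling, against 1060 and 1745 on log2(TPM + 1). Among the 6215 genes in the count range of the 31 subunits (means of 569.7 to 4761 normalised counts) 7.39% were past 1.2-fold (330 with replicate 1 higher and 129 with replicate 2 higher), and of the 31 subunits 1 was. Ratios shrink with depth, so the share in the same count range is the nearer background, and 1 of 31 is close to it. The median size of the difference was 1.03-fold for the 31 subunits, 1.06-fold in their count range and 1.08-fold over all genes.

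The member higher in replicate 1 was Psme2, at 307 and 268 counts, with a log2 ratio of 0.37 (95% counting interval 0.13 to 0.61). The member higher in replicate 2 was Psmb2, at 484 and 662 counts, with a log2 ratio of -0.28 (-0.45 to -0.11). Neither gene has a replicate check of this difference. In the second deposited quantification Psme2 kept its ratio (0.34) and Psmb2 did not pass 1.2-fold (-0.08). With spike-in scaling Psmb2 also stayed under 1.2-fold (-0.21). Psme2 has a near-identical copy, Psme2b on chromosome 11, whose coding sequence is 98.1% identical and which shares 62.1% of the 50-base windows of Psme2-201. Psme2b had 0.66 and 1.6 TPM from 8.52 and 22.6 expected counts, lower in replicate 1 where Psme2 was higher, so the split of reads between the copies is uncertain.

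**Figure D3:**
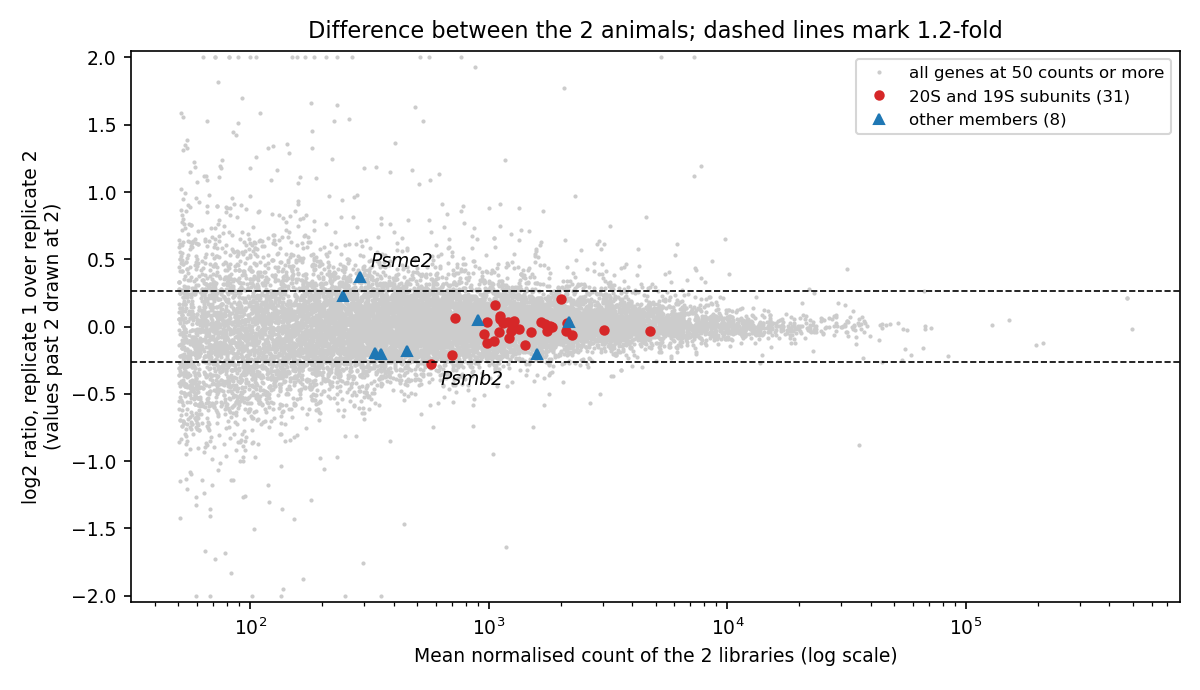
Log2 ratio of replicate 1 over replicate 2 against the mean normalised count on a log axis for the 14167 genes counted (grey), the 31 subunits of the 20S and 19S (red) and the 8 other members counted (blue), with dashed lines at 1.2-fold. The 31 subunits keep within the dashed lines apart from Psmb2 at -0.28, and of the 8 others Psme2 lies outside at 0.37.

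The 3 constitutive catalytic genes had ratios of 0.05 (Psmb5), 0.08 (Psmb6) and -0.03 (Psmb7). Of the induced genes only Psmb10 passed the minimum count, with a ratio of -0.18. The median ratio was -0.05 for the 7 alpha genes, 0.03 for the 6 ATPases and -0.00369 for the 8 lid genes. In the rest of the pathway, Psmg2 (0.42), Nfe2l2 (0.38) and Uba6 (0.29) were past 1.2-fold with replicate 1 higher, and Psmg4 (-0.56) and Psmf1 (-0.28) with replicate 2 higher. Of the 5 20S assembly genes counted, 1 was past it in each direction, and Psmg4 rests on 59 and 99 counts. The others were 1 of 3 transcription genes, 1 of 2 activating enzymes and 1 of 3 further assembly or inhibitor genes. None of the 2 further 19S, 3 proteasome-bound, 6 shuttle and 4 ubiquitin genes passed, and 18.4% of all genes did. Of the 9 antigen presentation genes counted, 2 were past 1.2-fold, a share near the 18.4% of all genes. These were Tap1 (-0.37, counting interval -0.92 to 0.14 from 53 and 78 counts) and Erap1 (-0.27), a trimmer of peptides for MHC class I.

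Most members were read from 1 main coding transcript. Over the 39 members that passed the minimum count, the leading transcript took a median of 83.8% and 84.4% of the gene's TPM, and 67.6% and 67.0% over the 12804 protein-coding genes with a mean of at least 50 expected counts. It took 90% or more in 15 of 39 and 50% or more in 34. It was annotated as coding in 37, was the same in both libraries in 37 and was the same in both libraries and both quantifications in 29. Psma5 (100%), Psmb5 (99.7%) and Psmb7 (99.4%) had the most nearly single forms among subunits. Coding forms together took a median of 92.8% and 93.7%, against 91.0% and 90.02% over the same 12804 genes.

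**Figure D4:**
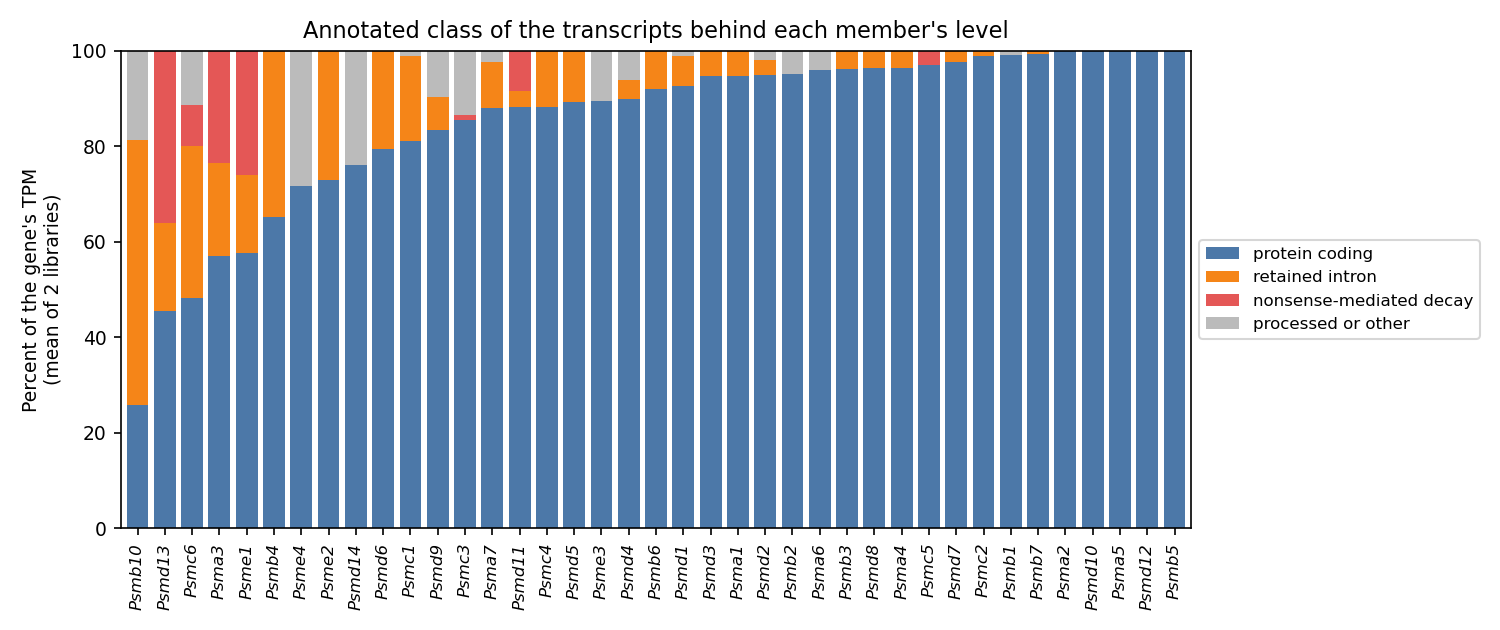
Stacked bars of the mean percent of each gene's TPM in the 2 libraries held by transcripts annotated as protein coding, retained intron, nonsense-mediated decay or processed and other, for the 39 members with at least 50 normalised counts. Psmb10, Psmd13 and Psmc6 lie under 50% coding at 25.7%, 45.4% and 48.2%.

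Coding forms took under 50% of the level in 3 of 39 members, against 9.49% of the 12804 genes. Besides Psmb10 these were Psmd13 and Psmc6. In Psmd13, a lid gene, the coding Psmd13-208 led in replicate 1 (34.6%, and 26.6% in replicate 2), while the nonsense-mediated decay form Psmd13-211 took 33.8% and 38.2% and led in replicate 2. In Psmc6 the coding Psmc6-201 took 52.6% and 43.8%, and 78.2% and 75.3% of the gene's counts. The lowest leading share was that of Psma3, where Psma3-204 took 23.1% and 32.6% among 9 annotated forms.

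For several genes the choice of form was not settled. The second quantification gave Psma3-204 0% and 23.1% and led with Psma3-208 in replicate 1 and Psma3-201 in replicate 2. It gave Psmb1-204 84.3% and 87.9%, where the first gave Psmb1-201 66.4% and 74.8%. For Psme2 it gave Psme2-208 64.5% and 96.5%, where the first gave Psme2-201 56.3% and 65.3%. For Psmb10 it led with Psmb10-205 in replicate 1 (56.2%) and with the coding Psmb10-201 in replicate 2 (36.3%). Leading forms also differed for Psmc6, Psmd5, Psmd9, Psmd10, Psmd13 and Psme1, among members that passed the minimum count. Psmd9 led with Psmd9-204 in replicate 1 and with Psmd9-201 at 48.5% in replicate 2. Below the minimum count, Psma8, Psmb9, Psmb11 and Psmc3ip differed as well, each on 27 counts or fewer.

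Processed pseudogenes and overlapping genes limit some levels. The leading coding transcripts of 24 of the 45 members shared no stretch of 50 bases with another annotated gene, and those of 6 shared over 50% of theirs. No such count was made over all coding genes, so whether the members are unusual in this is not known. Psma3 shared 78.5% of its windows with the pseudogene Gm13835, which was assigned 92.9 and 81.6 expected counts beside 1274 and 1582 for Psma3. Psmb5 shared 49.4% with Gm3375, at 118.2 and 102.1 counts beside 1070 and 1162. Psma5 and Psmb3 shared 54.5% and 55.8% with pseudogenes in all. A gene on the opposite strand overlapped 19 members. Some members also overlapped a gene on the same strand. Psmd13 overlapped the pseudogene Gm15542 over 1194 bases of its span, at 269.4 and 222.5 counts beside 885 and 1085. Psma2 overlapped AW209491 over 8943 bases, at 439 and 431 counts beside 1155 and 1335. All 837 bases of Psme2b lay within Gm12185. The effect of these overlaps on the levels was not tested.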

How the data were processed

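Per the file headers, the authors deposited a gene and a transcript table per library with expected counts, TPM and FPKM, and for each transcript its percent of the gene. Per the notes deposited with the files, these use mm10 and GENCODE M21. A second deposited transcript table holds estimated counts and TPM made from the reads. Programs, versions and strand setting: not given in the sources used here. Cast alleles had no reference of their own, and any loss of their reads was not analysed here.

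Members and gene lists were chosen with earlier results of these data known. Every member is accounted for, and other 19S genes are named by the 3 highest and 3 lowest and transcript forms by the lowest leading shares. Expected counts were rounded and scaled with edgeR 4.0.16 (TMM, ribosomal RNA genes left out, library sizes 24688700 and 27440164) with a prior count of 2. Geometric means used TPM + 0.01. The between-animal step was tested on simulated data. Alternatives covered DESeq2 1.42.0 size factors, spike-ins, library size, prior count, filter, unit, quantification and each animal alone. Other tools were Biopython 1.88, matplotlib 3.10.9, numpy 2.4.6, pandas 2.3.3, Python 3.11.15 and R 4.3.3. Of the listed symbols, 3 (Shfm1, Paaf1, AI314180) matched no gene, and 1 leukocyte marker is not reported here. Sequences were read from GENCODE M21 transcripts and RefSeq promoters.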

Additional observations from a re-analysis of the deposited data

How the results depend on the processing

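The median level moved with the unit and the quantification. For the 20S genes it was 65.6 TPM in the gene tables, 71.9 TPM in the second quantification and 42.3 in FPKM, and for the 19S genes 53.8, 62.1 and 34.6. These are means of 2 libraries that were unlike in the second quantification. There protein-coding genes held 46.4% and 66.2% of the TPM in replicates 1 and 2, against 49.3% and 50.6% in the gene tables. Each of the 31 subunits was higher there in replicate 2, such as Psmd2 at 75.0 and 112.7 TPM. When the second quantification was rescaled to the same share of protein-coding TPM, a setting chosen after seeing the data, the 20S median was 63.55 TPM. On coding transcripts alone, also chosen after seeing the data, the medians were 60.6 and 50.4 TPM, the SDs of log2 levels 0.48 for the 20S and 0.59 for the 19S, and the ratio of 20S to 19S genes 1.13. The SD of log2 levels in the second quantification was 0.65 for the 20S and 0.41 for the 19S, against 0.56 and 0.43. The ratio of induced to constitutive catalytic genes, 5.05%, became 7.19% with a pseudocount of 1, 2.55% on coding transcripts alone and 2.85% on coding transcripts of the second quantification, the last 2 chosen after seeing the data. The number of members past 1.2-fold between animals, 2, became 4 in the second quantification (Psma3, Psmc5, Psmd10 and Psme2, sharing 1 gene with the original 2) and 6 of 45 with no minimum count. It was 3 with spike-in scaling (Psmc5, Psmd10 and Psme2, sharing 1) and 3 on log2(TPM + 1) (Psma3, Psmb2 and Psme2, sharing 2). The median share of the leading transcript was 74.6% in the second quantification. Each animal alone moved none of the medians, spreads and ratios beyond 1 SD, which holds for any 2 values: the induced ratio ran from 4.66% to 5.44% and the ratio of 20S to 19S genes from 1.02 to 1.08. No paired analysis was possible because the 2 libraries form 1 group. With 1 library per animal and 2 animals, the SDs are themselves uncertain, and 19 to 33 counts limit Psmb8 and Psmb9.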
